A study of Mus musculus with 2 samples.

Results

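The 328 circular RNAs (circRNAs) described here were read at least 10 times across their back-splice junction in the non-ISC library and had no entry in the ISC library. They were taken by matching the entries of the deposited tables by circRNA position, so the non-ISC junction reads and the missing ISC entry are what chose them, and both are given below as a description without a test. They were 328 of the 1416 circRNAs with at least 10 non-ISC junction reads (23.2%), in a series with 26265 circRNAs that had a junction read in either library. The remaining 1088 circRNAs with at least 10 non-ISC reads had an ISC entry and are the set compared with them. A second comparison set is the mirror image, the 658 of 2553 circRNAs with at least 10 ISC junction reads (25.8%) that had no non-ISC entry.

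RNA came from cells sorted by FACS from the intestine of 2-month-old mice of the Lgr5GFP-CreERT2 strain, and both groups carry this allele, in which GFP and a tamoxifen-inducible Cre are placed under the control of the Lgr5 gene. The ISC group is labelled Lgr5+ and the non-ISC group Lgr5-, with 1 library each. Without replicates the spread between samples is unknown, so differences are described and not tested. The gut segment, the number of mice, the sorting gates and any use of tamoxifen are not stated in the labels. Ribosomal RNA was depleted and linear RNA was digested with the exonuclease RNase R before the libraries were made. Expression of this Lgr5 reporter is known to be patchy between crypts, so cells without GFP can include stem cells.

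The ISC library held 156582 junction reads on 18438 circRNAs, each with at least 1 junction read, and the non-ISC library held 76331 junction reads on 12202 circRNAs, a ratio of totals of 2.05. Another 6122 non-ISC entries had no junction read and were not used. A missing ISC entry is read as 0 junction reads, which allows a level of up to 19.2 per 1000000 junction reads of that library (3 counts), and 10 reads in the non-ISC library are 131 per 1000000. Intervals and this limit cover counting error only, because reads after PCR are not independent molecules. The markers went against the ISC label: Epcam, the pan-epithelial adhesion molecule, had 0 ISC against 59 non-ISC junction reads, Cdh1 (E-cadherin) 0 against 12, Krt8 0 against 7, and Lgr5 itself 0 against 7. Ptprc, the leukocyte phosphatase CD45, had 58 ISC junction reads against 0, and the whole immune cell list of 87 genes had 9222 against 344, while the CD3 chain gene Cd3e had no reads in either library. The library is therefore called "the library labelled ISC" where a direction is drawn from it. Whether the labels of the libraries were exchanged, or how many leukocytes the sort held, was not tested, and every direction below is by label. The part of this difference in cell makeup in the missing ISC entries was not tested. In sorted bulk RNA, fewer cells of a type and less RNA per cell cannot be told apart.

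A circRNA forms when the spliceosome joins the end of an exon back to the start of the same or an earlier exon, which closes the exons between them into a ring without free ends. Such rings resist exonucleases and are counted by reads that cross the back-splice junction, a sequence order that the linear transcript does not have. The intestinal epithelium renews itself from Lgr5-expressing stem cells at the crypt base, whose daughters become absorptive enterocytes or secretory goblet, Paneth, tuft and enteroendocrine cells. A circRNA can be made only where its host gene is transcribed, and its level is also set by how the exons are spliced.

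The junctions of 8 members are printed as the reader of a sequencing read would meet them, 25 bases on either side of the back-splice, on the strand of the gene, 5′ to 3′. Lower case is the end of the last exon and capitals are the start of the first exon, as spliced in GENCODE M21 (GRCm38). The first 5 belong to hosts without any ISC junction read and the last 3 to hosts with ISC reads on other circRNAs, and they are shown because these sequences identify the members that the results turn on.
Btnl1, chr17:34380961-34382488, plus strand, exons 4 to 8: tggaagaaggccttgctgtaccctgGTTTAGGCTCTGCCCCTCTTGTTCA
Cdhr2, chr13:54727910-54731452, plus strand, exons 20 to 23: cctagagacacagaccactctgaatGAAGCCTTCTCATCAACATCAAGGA
Atp9a, chr2:168705123-168710976, minus strand, exons 2 to 4: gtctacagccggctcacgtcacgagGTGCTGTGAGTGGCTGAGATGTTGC
Heph, chrX:96497848-96500719, plus strand, exons 11 to 13: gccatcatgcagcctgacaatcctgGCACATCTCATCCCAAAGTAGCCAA
Epcam, chr17:87643542-87646340, plus strand, exons 7 to 8: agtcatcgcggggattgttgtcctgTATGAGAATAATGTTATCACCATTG
Gigyf2, chr1:87364104-87380008, plus strand, exons 4 to 8: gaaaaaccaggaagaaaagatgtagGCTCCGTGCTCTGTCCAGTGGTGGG
Zfp827, chr8:79118175-79136663, plus strand, exons 6 to 8: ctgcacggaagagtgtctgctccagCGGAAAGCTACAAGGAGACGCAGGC
Tns3, chr11:8518199-8519570, minus strand, exons 14 to 16: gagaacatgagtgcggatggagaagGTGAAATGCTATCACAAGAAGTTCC

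The members held 11490 junction reads, 15.1% of those in the non-ISC library, and their reads were concentrated in a few circles. The Btnl1 circRNA of exons 4 to 8 had 2258 of them, 19.7% of the members' reads, and the 25 most abundant members together had 50.4%. Without that Btnl1 circle the other members held 12.5% of the non-ISC junction reads. The median member had 15 reads, 217 members (66.2%) had 20 or fewer, and 13 had at least 100. At the threshold, 51 members had exactly 10 reads, out of 165 circRNAs with 10 reads, and just outside it 39 of the 164 circRNAs with 9 reads also lacked an ISC entry. Those just outside included circles of the hosts Cobl, Enpep, Myo7b and Pls1, which also host members.

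**Figure D1:**
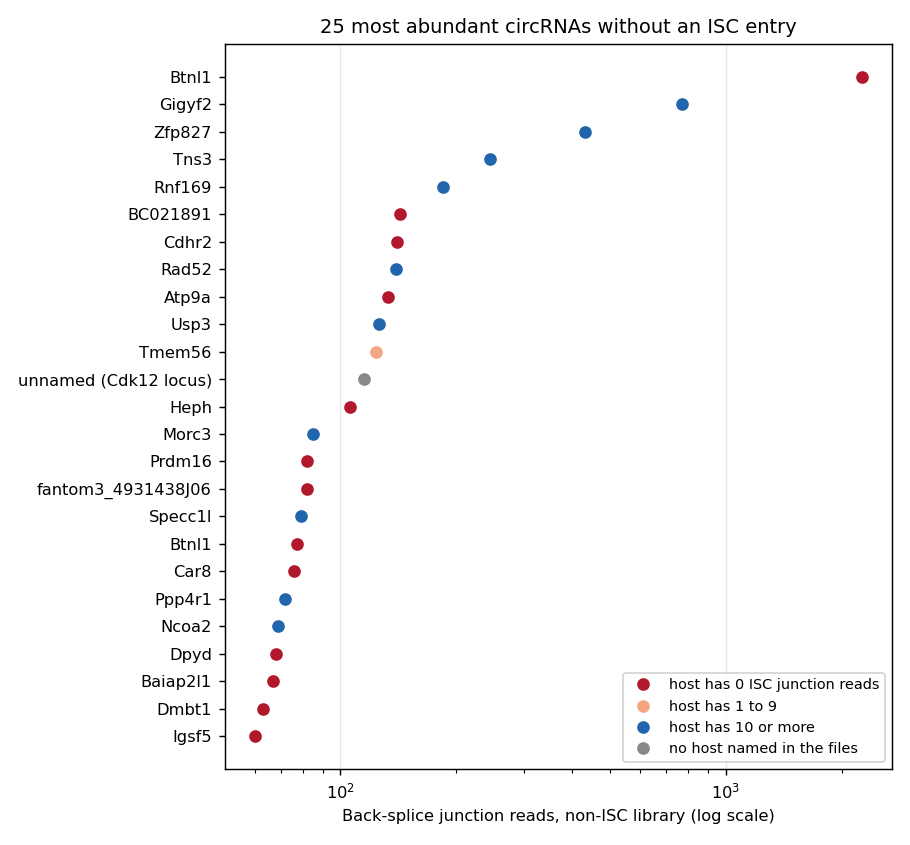
Back-splice junction reads in the non-ISC library (horizontal axis, log scale) of the 25 most abundant members, 1 point per circRNA, named by host gene and coloured by whether the host had ISC junction reads on other circRNAs. Btnl1 stands at 2258 reads and Gigyf2 at 770, and the 25th member, on Igsf5, is at 60.

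Btnl1 encodes a butyrophilin-like protein of the enterocyte surface that takes part in maintaining intraepithelial lymphocytes. Its leading circle, whose junction is shown first above, joins 558 spliced bases of 5 coding exons and carried 93.3% of the host's 2421 non-ISC junction reads. The other 4 Btnl1 members had 77, 38, 34 and 14 reads, and all 4 began at the same base, 33 bases inside exon 4, while their ends differed. Every Btnl1 circRNA with a non-ISC junction read was a member, and the host had no ISC junction read.

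Below Btnl1 the most abundant members fell on hosts with and without ISC reads. Gigyf2, which encodes a translational repressor that works with the cap-binding protein 4EHP, had 770 reads on its circle of exons 4 to 8, 94.2% of the host's non-ISC reads. Zfp827, a zinc finger gene, had 430 reads on exons 6 to 8 (69.6% of its host's reads), and Tns3, encoding the focal adhesion protein tensin 3, had 245 reads on exons 14 to 16 (67.5%). Rnf169, encoding a ubiquitin-binding protein of the DNA damage response, had 185 reads on exons 2 to 4, 99.5% of its host's reads. All 4 of these hosts had ISC junction reads on other circRNAs, 28, 66, 74 and 39 in that order. Hosts without an ISC read among those of the 25 most abundant members included BC021891 (143 reads), Cdhr2 (140), Atp9a (133), Heph (106) and Prdm16 (82), the last on a single 350-base exon 2. Cdhr2 is a protocadherin that links brush border microvilli at their tips, Heph the ferroxidase hephaestin that passes iron out of enterocytes, and Atp9a a phospholipid flippase-type ATPase.

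A host name was given for 319 members, on 270 host genes, and 40 hosts had more than 1 member. Of these hosts, 104 had no ISC junction read on any circRNA, and they carried 136 members with 5763 reads. The other 166 hosts had ISC junction reads on other circRNAs and carried 183 members with 5481 reads. So for 57.4% of the members with a host name (exact binomial 95% interval 51.7 to 62.9%) the host was read in the library labelled ISC through other circles. The same share was 90.2% (88.3 to 91.9%) among circRNAs with an ISC entry, counting ISC reads on the host's other circRNAs, and 79.1% of the mirror set had non-ISC reads on other circRNAs of the host. The intervals of the first pair do not overlap, but they treat circRNAs of one host as separate and compare 2 libraries, not the conditions. The choice of the sets favours such a gap, because every circRNA with an ISC entry lies on a host read in the library labelled ISC. How much of the gap follows from this was not tested. Counted by host, and for the opposite case, 104 of the 270 member hosts had no ISC junction read. The background for this count is 10.1%, 104 of the 1031 hosts of circRNAs with at least 10 non-ISC reads. By the way the members were chosen, all hosts without an ISC junction read among the 1031 are member hosts.

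**Figure D2:**
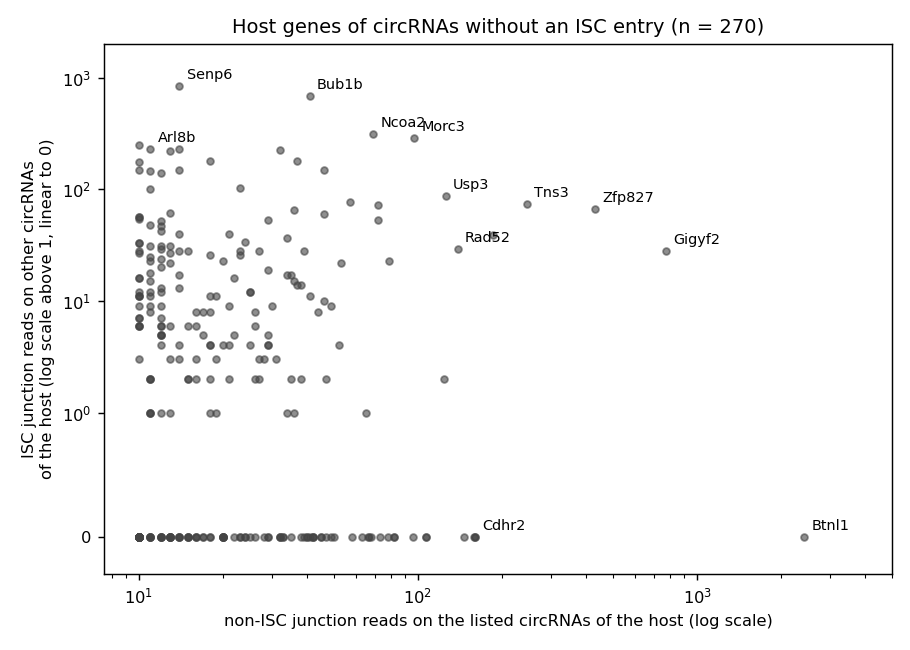
Each point is 1 of the 270 host genes; the horizontal axis (log scale) is the summed non-ISC junction reads of its members and the vertical axis (log scale above 1, linear to 0) its ISC junction reads on other circRNAs. The 104 hosts on the bottom line, among them Btnl1 and Cdhr2, had 0 ISC reads, and Senp6 is highest at 833.

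Genes of the absorptive enterocyte had the highest share of members among the curated lists. Over a list of 97 genes of digestion, absorption and the brush border, 22 of the 23 circRNAs with at least 10 non-ISC reads were members (95.7%, against 23.2% of all circRNAs), on 12 hosts, 8 of them without an ISC read. The median member of the list had 20.5 reads, against 15 for all members, and the list as a whole had 35 ISC against 3552 non-ISC junction reads. Btnl1 contributed 5 of the 22 members. The list was drawn up with Btnl1, Cdhr2 and Heph already known from these samples, so its count is not independent evidence of a direction.

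The enterocyte hosts cover the apical membrane from its protein scaffold to its enzymes. Members of Myo7b, a myosin of the microvillus tip complex, summed to 68 reads, those of the actin bundler Pls1 to 41, and that of Myo1a, the brush border myosin, to 15. Among peptidases and glycosidases of the apical membrane, Enpep had 21 reads, Tmprss2 had 20, Anpep (aminopeptidase N) had 19 and Mgam (maltase-glucoamylase) had 13. These hosts had 4, 4, 1 and 0 ISC junction reads on other circRNAs, in that order. Heph was read on circles that both begin at exon 11, 106 reads to exon 13 and 40 reads to exon 16. A second Cdhr2 member had 20 reads.

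Transporter genes, grouped here by symbol, were a second source of members. Of 19 circRNAs on genes with an Slc symbol (solute carriers) 11 were members (57.9%), on 8 hosts, 7 of which had no ISC read. Slc5a1, the intestinal sodium-glucose cotransporter SGLT1, had members of 37 and 12 reads; Slc5a11, the related sodium-inositol cotransporter, had 42 and 16; and Slc28a1, a nucleoside transporter, had 13 and 12. All 4 circRNAs on Abc transporter genes with at least 10 reads were members, 3 on Abcc2 (17, 15 and 10 reads) and 1 on Abcc6 (38). Abcc2 exports conjugates across the apical membrane, and its host reads in the library labelled ISC were 0. Over all Abc genes the library labelled ISC had 220 junction reads against 142, in libraries whose totals differ 2.05-fold.

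Metabolic enzymes formed the next group. Its small-molecule and glycan lists were put together after the members' values had been seen, so their counts only describe the members. Small-molecule and redox enzymes hosted 23 members out of 29 circRNAs (79.3%), on 18 hosts, 10 of which had no ISC read. Car8, a carbonic anhydrase-related protein, had 107 reads on 2 members, Dpyd, the first enzyme of pyrimidine breakdown, 96 on 3, and Agmo, which cleaves ether lipids, 45. Glycan-building enzymes hosted 12 of 22 (54.5%), led by B4galnt2, a glycosyltransferase of the gut epithelium, with 107 reads on 3 members and no ISC read. Mgat4a, an N-glycan branching enzyme, shows the other kind of host: 37 reads on its member and 179 ISC reads on other circRNAs. On the lipid and sterol list 9 of 19 circRNAs were members (47.4%), among them those of Atp9a, the ceramide synthase gene Cers6 (46 reads) and Soat2 (42 reads), which esterifies cholesterol.

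Genes of cell contacts, polarity and keratins hosted 15 members of 27 circRNAs (55.6%, against 23.2% of all), on 13 hosts of which 6 had no ISC read. Pkp2, the desmosomal plakophilin 2, had members of 39 and 34 reads, and Epcam had 50 reads on exons 7 to 8, 84.7% of its host's reads. Ocln (occludin) had 18 reads, and its host had 2 ISC junction reads on other circRNAs. This list as a whole had 1678 ISC and 1313 non-ISC junction reads, against 35 and 3552 for the enterocyte list. No circRNA of the enterocyte, contact and secretory lists was in the mirror set. There 42 circRNAs belonged to the immune list (6.38%, against 0.460% with an ISC entry) and 38 to cell division (5.78% against 2.39%). Chromatin regulators had 40 (6.08%), near their 6.71% among circRNAs with an ISC entry.

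Secretory and stem cell genes hosted few circRNAs with at least 10 non-ISC reads, but most of these were members, against 23.2% of all circRNAs. The members had 10 to 21 reads each, around the median of 15 for all members. The goblet, Paneth, endocrine and tuft list had 3 members of 4 circRNAs: Plcg2, a phospholipase abundant in tuft cells, with 16 reads, the transmembrane mucin Muc13 with 11, and Fcgbp, a protein of goblet cell mucus, with 10. On the Lgr5 stem cell signature 6 of 7 circRNAs were members (85.7%), 3 on Smoc2 (15, 15 and 10 reads), 2 on Prom1 (21 and 14) and 1 on Slc12a2 (10). Smoc2, a secreted matricellular protein, is part of the stem cell signature, and none of these 3 hosts had a read in the library labelled ISC. Over all 34 genes of the signature that library had 55 junction reads against 200 in the non-ISC library.

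Signalling hosts lay between these groups. Of 15 circRNAs on the list of receptor tyrosine kinases and growth factor signalling, 7 were members (46.7%). They were on Tns3, Erbb3 (29 reads), Ddr1 (20), Epha2 (14), Ptprg (13), Ptk2 (11) and Frk (10). The share was near the background for gut epithelial transcription factors (3 of 11, with Zfp827, the thyroid receptor gene Thrb at 27 and Gata6 at 10), for Notch and Hippo genes (3 of 13, with the giant cadherin gene Fat1 at 42) and for phosphoinositide signalling (5 of 23, with Osbpl6 at 35). The Wnt list had 1 member of 10 circRNAs, on the kinase gene Gsk3b with 10 reads, and the BMP and TGF-beta list 1 of 8, on Hipk2 with 13 reads.

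Chromatin regulators and Zfp genes had the lowest shares among the lists with a member. Of 76 circRNAs on chromatin regulators 3 were members (3.95%), on the nuclear receptor coactivator Ncoa2 (69 reads), the histone demethylase Kdm5c (39) and Baz2b (11). The share was 4.76% for Zfp genes (1 of 21), 10.3% for cell division and replication (3 of 29, on Bub1b, Prc1 and Kif14) and 12.1% for RNA binding and splicing (7 of 58, led by Gigyf2). It was 15.2% for regulators of small GTPases (7 of 46), 19.1% for ubiquitin ligases and deubiquitinases (9 of 47), and DNA repair genes hosted 4 members of 20 circRNAs. In the chromatin, RNA binding, cell division, ubiquitin and DNA repair lists every member host had ISC junction reads. The immune list had 1 member of 6 circRNAs, on Inpp4b with 10 reads, and the stromal, muscle and endothelial list had 0 of 1. At least 1 of the gene lists or symbol families held the host of 153 members, and the other members lay outside all of them.

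**Figure D3:**
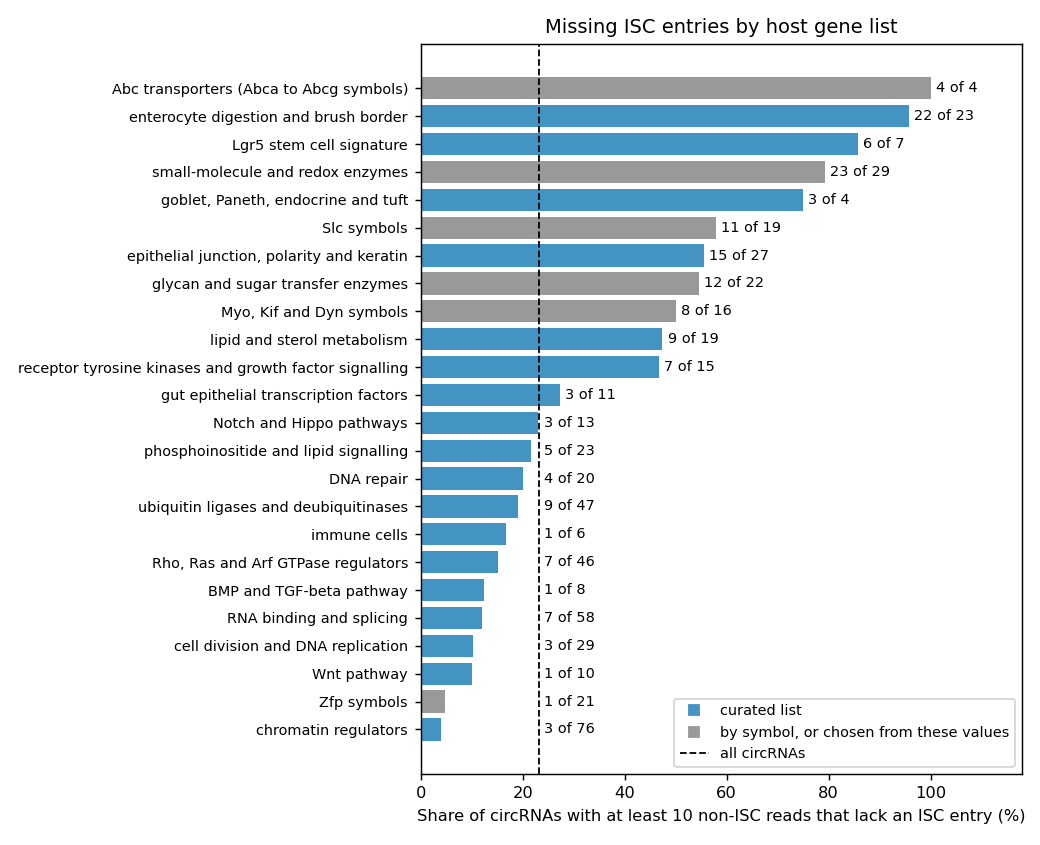
Share (%) of the circRNAs with at least 10 non-ISC junction reads that lacked an ISC entry, for each list of host genes with at least 4 such circRNAs, with the number of members of the number of circRNAs beside each bar and the 23.2% of all circRNAs as a dashed line. Abc transporters, with 4 of 4, and enterocyte genes, with 22 of 23, are at the top and chromatin regulators, with 3 of 76, at the bottom; grey bars are lists by gene symbol or lists chosen after the values had been seen.

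Hosts with ISC reads on other circRNAs ranged from barely to heavily read ones. Of the 166 such hosts, 42 had 1 to 4 ISC junction reads, 30 had 5 to 9, 61 had 10 to 49, 14 had 50 to 99 and 19 had at least 100, with a median of 12.0. Senp6, a SUMO protease, had the most, 833 ISC reads on other circRNAs against 14 reads on its member. Bub1b, the spindle checkpoint kinase BUBR1, had 679, and its member of exons 16 to 17 held 41 of the host's 55 non-ISC reads. Ncoa2 had 314 and the chromatin-binding ATPase gene Morc3 had 286. Arl8b, a lysosomal GTPase, had a member of 11 reads and 230 ISC reads on 1 other circRNA, which starts at the same base and ends further out, at 108818613 in place of 108815351 on chromosome 6, and which had no non-ISC entry. For Arl8b the circle seen in each library was thus a different one from the same start.

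Many members used a splice site that an ISC circRNA also used. Start and end in these comparisons are the lower and the higher genomic position. On the minus strand the start is thus the end of the circle's last exon. A start or an end in common with an ISC circRNA was found for 124 of the 328 members (37.8%, 32.5 to 43.3%), with 77 sharing a start, 79 an end and 32 both. The share was 74.4% (71.7 to 77.0%) among circRNAs with an ISC entry, counted against other ISC circRNAs, and 53.0% in the mirror set against non-ISC circRNAs. Among the 183 members whose host had ISC reads it was 66.7%. As above, the choice itself favours a gap to circRNAs with an ISC entry, whose hosts were all read in the library labelled ISC. The most abundant ISC partner of the 124 had a median of 5.5 reads, and 49 had a partner with at least 10.

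The 3 most abundant members with such a partner differ in how the partner was read. Starts and ends are again genomic positions, and Tns3, Rnf169 and Ncoa2 lie on the minus strand. Gigyf2 shares its start with a circle to 87374111 that had 10 ISC and 17 non-ISC reads, against 770 non-ISC reads and no ISC entry for the member. Zfp827 shares its start with a circle to 79120540 that had 35 ISC against 90 non-ISC reads, and its end with a circle from 79091833 that had 16 against 41. Tns3 shares its start with a circle to 8532509 that had 2 against 18. These partners were read in both libraries while the member had no ISC entry. Rnf169 was the reverse case, as its start is shared with a circle to 99943105 that had 27 ISC reads and no non-ISC entry. The member of Ncoa2 shares its start with the host's main circle, from 13221307 to 13286025, which had 259 ISC and 82 non-ISC reads.

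For 8 members the ISC table held an entry whose ends both lay within 10 bases of the member's, 9 entries in all with 1 to 84 ISC reads. Of these entries 8 were shifted into the circle at 1 end, by 2 to 7 bases, and 1 was shifted outward. The Rad52 member (139 reads; Rad52 is a DNA repair protein) had an ISC entry of 2 reads that begins 3 bases later, and the Usp3 member (126 reads; Usp3 is a histone deubiquitinase) one of 2 reads that lacks 7 bases. Their junctions are printed with the bases that the ISC entry leaves out in capitals to show how near the entries lie.
Rad52, chr6:119920110-119921028, plus strand, exons 10 to 11: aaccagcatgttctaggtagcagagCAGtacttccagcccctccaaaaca
Usp3, chr9:66540062-66566903, minus strand, exons 2 to 7: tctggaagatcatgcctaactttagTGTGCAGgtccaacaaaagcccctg
In both, the missing bases are the first bases of the first exon and end in AG. The Morc3 member (85 reads) had 2 such entries, of 11 ISC reads at 5 bases outward and of 84 ISC reads at 7 bases inward, the latter with 9 non-ISC reads, so its missing ISC entry rests on the exact base at which the circle was said to start. The other 5 near entries were at the Cdk12 locus (5 ISC reads, 115 on the member), Cnot2 (5, 58), Emg1 (4, 17), Uaca (3, 14) and Fkbp5 (1, 13). Whether these entries are alignment variants was not tested.

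The other circRNAs of the members' hosts, which the selection did not use, were compared between libraries over circRNAs read in both. A host was counted as lower or higher where it had at least 10 such reads and met these limits. Its ratio of reads per total junction reads of the library was at least 2-fold from 1, and the exact conditional 95% interval excluded 1. Of 96 member hosts that could be counted, 42 were lower in the library labelled ISC (43.8%) and 8 were higher (8.33%), against 35.2% lower and 10.1% higher of the 815 hosts of circRNAs with at least 10 non-ISC reads and an ISC entry, and 20.7% lower and 14.3% higher of all 1678 hosts. Their median ISC to non-ISC ratio was 0.487, against 0.937 for all hosts and 0.707 for the 815 hosts. The values of the 815 hosts include the circRNAs chosen for at least 10 non-ISC reads, which favours a low ratio. For member hosts the members themselves are left out, so the comparison is between unlike sums. Summed over the member hosts, 4704 ISC and 3771 non-ISC reads gave a ratio of 0.608 (0.582 to 0.635). The direction depends on the scaling: per sequenced library rather than per junction read, 11 member hosts were lower and 30 higher, with a median of 1.37, against a median of 2.64 for all hosts. This rescaling moves every host by the same factor.

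The lower hosts included genes with few ISC reads on any circle and others with more. Pde5a, the cGMP phosphodiesterase, had 37 ISC against 245 non-ISC reads on its other circRNAs, a ratio of 0.0736 (0.0506 to 0.104). App, the amyloid precursor protein, had 4 against 41 (0.0476, 0.0124 to 0.131), Cryl1, a crystallin-related dehydrogenase, 4 against 69, and Esrp1, the epithelial splicing regulator, 4 against 23. Zfp827 and Tns3 were also lower, with 66 against 166 (0.194, 0.143 to 0.259) and 71 against 102 (0.339, 0.247 to 0.464), as was Mgat4a with 172 against 312. In these hosts the missing member went with fewer ISC reads, per total of junction reads, on the other circles read in both libraries. Per sequenced library, fewer member hosts were lower, as given above.

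The 8 higher hosts had the opposite pattern within 1 gene. They were Usp3, Morc3, Foxn3, Fkbp5, Cwf19l2, Zdhhc20, Tpr and Zfand3. Fkbp5, the glucocorticoid-induced co-chaperone, had 148 ISC against 9 non-ISC reads on circles read in both, a ratio of 8.02 (4.11 to 17.9), while its member had 13 non-ISC reads and no ISC entry. Morc3 had 233 against 46 (2.47, 1.79 to 3.47), and 84 of these ISC reads lie on the near entry described above. Foxn3, a forkhead repressor gene on the minus strand, had 69 ISC reads on a circle that begins at the same base as both Foxn3 members. Those members begin at exon 2 and had 39 and 18 reads. For Senp6 (737 against 188), Bub1b (25 against 12) and Ncoa2 (271 against 91) the ratios of 1.91, 1.02 and 1.45 were inside the 2-fold limits. The Bub1b ratio leaves out most of the host's reads. Over all its circles, the member included, Bub1b had 679 ISC and 55 non-ISC reads.

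On several hosts the members share a splice site with each other. Besides the 5 of Btnl1, 3 members each were seen on Atp9a, B4galnt2, Pcsk5, Abcc2, Smoc2 and Dpyd. On Atp9a all 3 began at exon 2 and ran to exon 4 (133 reads), exon 14 (16) and exon 27 (11), the last a ring of 26 exons over 73476 bases. On B4galnt2 all 3 also began at exon 2 and ran to exons 5, 7 and 4, with 59, 33 and 15 reads. Pcsk5, a proprotein convertase, had members of 37, 16 and 12 reads, 2 of which end at the same exon 24, and 1 ISC junction read. Such members share a splice site and a transcript and are not independent of each other.

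In structure the members resembled the circRNAs with an ISC entry in some measures and differed from them in others. The median genomic span was 6663 bases (95% interval of the median 5326 to 8107), against 6333 (5847 to 7172) with an ISC entry and 6250 in the mirror set. Both ends lay on exon ends of 1 GENCODE transcript in 92.4%, 94.3% and 91.2%, and the measures that follow are over these 303 members, 1026 circRNAs with an ISC entry and 600 of the mirror set. The median was 3 exons in each set. The spliced length had a median of 449 bases (413 to 490), close to the 459 bases (443 to 477) with an ISC entry, and both exceed the 387 (373 to 403) of the mirror set, which comes from the other library. The intron before the first exon, where flanking repeats are known to help circles form, had a median of 11301 bases against 11597 and 7301, and the intron after the last exon 7127 (5890 to 8209) against 8492 (7916 to 9233) and 5235.

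The share of circles that begin at the second exon of the transcript was 31.7% of members (26.5 to 37.2%) against 43.9% (40.8 to 47.0%) with an ISC entry and 27.0% in the mirror set, and the first 2 intervals do not overlap. In content, 84.2% of the members (79.6 to 88.1%) held coding sequence alone. The share was 75.9% (73.2 to 78.5%) with an ISC entry and 86.2% in the mirror set. Circles that joined 5′ untranslated and coding sequence were 13.5%, against 22.1% and 12.0%. Single-exon circles made up 2.64% of the members, 8 in all, and 2.67% of the mirror set. With an ISC entry they were 6.63% (5.18 to 8.33%). In these shares of content and single exons the members were close to the mirror set. The members' spliced sequence had a median GC content of 49.6% (48.9 to 50.4%), against 47.9% (47.4 to 48.4%) and 46.3% (45.5 to 47.1%). These intervals cover the counting of circRNAs, which share hosts, and the libraries' GC bias was not measured here. Among coding circles the spliced length was a multiple of 3 in 42.4% (36.2 to 48.7%) of members, against 36.2% (32.8 to 39.7%), with overlapping intervals.

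**Figure D4:**
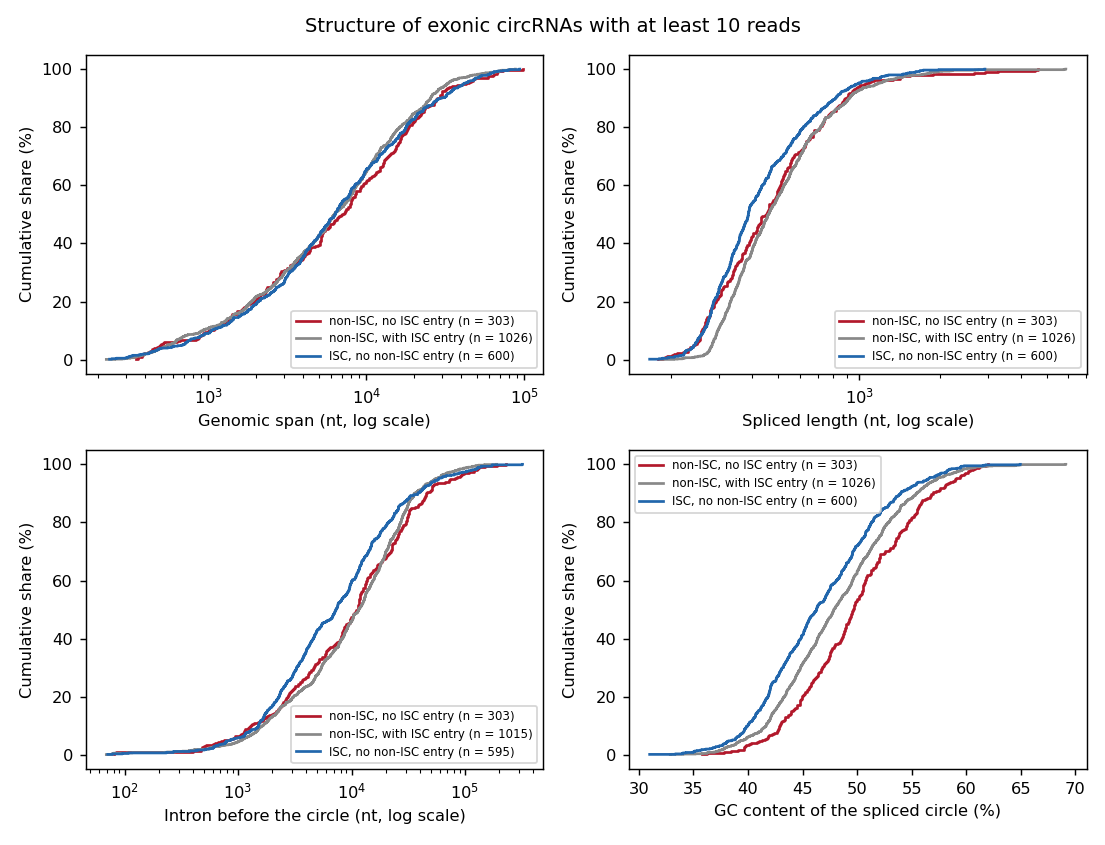
Cumulative share (%) of exonic circRNAs by genomic span, spliced length and the intron before the circle (bases, log scales) and by GC content (%), for 303 members (red), 1026 circRNAs with an ISC entry (grey) and 600 of the mirror set (blue). The curves of span lie close together, the mirror set is shorter in spliced length, with a median of 387 bases against 449 for the members, and the members' curve of GC content lies furthest right, with a median of 49.6%.

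Members of hosts with no ISC read had a median of 4 exons and 499 spliced bases (430 to 554), against 3 exons and 416 bases (381 to 458) where the host had ISC reads, and 19.0% of them had at least 6 exons, against 8.57% of members whose host had ISC reads. The longest spans were on Foxn3 (97681 bases), Rsrc1 (93676) and Atp9a (73476), and the shortest on Fcgbp (253), Epg5 (313) and Prdm16 (350). In all 10 members (3.05%) spanned at least 50000 bases and 18 (5.49%) at most 500.

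By chromosome, members were most numerous on chromosome 5 with 29 (8.84%) and chromosome 17 with 28 (8.54%, 5.75 to 12.1%). On chromosome 17, 4.32% of the circRNAs with an ISC entry and 4.71% of the mirror set were found, below the interval of the members, and 5 of the 28 are the Btnl1 circles. Chromosomes 2 and 7 had 25 members each, and chromosome 16 had 18 (5.49%, 3.28 to 8.53%) against 3.12% with an ISC entry. Chromosome X had 4, of which 2 are on Heph, 1 on Kdm5c and 1 on Mid1.

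**Figure D5:**
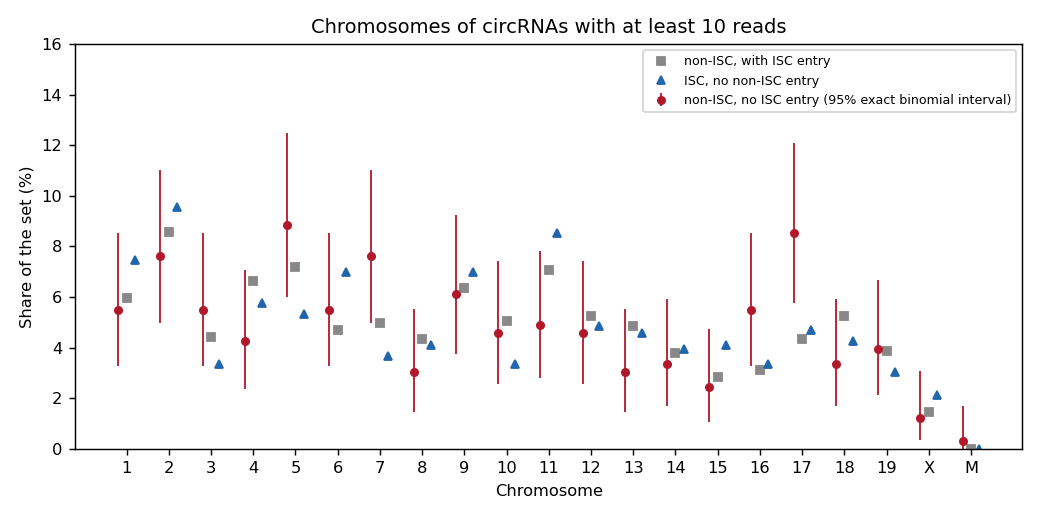
Share (%) of each set of circRNAs on each chromosome; red points with exact binomial 95% intervals are the members, grey squares circRNAs with an ISC entry, and blue triangles the mirror set. Chromosome 17 holds 8.54% of the members against 4.32% and 4.71% of the other sets.

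The 9 members without a host name in the files had 246 reads and were placed by GENCODE. The most abundant, with 115 reads, joins exons 5 to 7 of Cdk12, a transcription elongation kinase gene whose circles had 23 ISC reads. Malrd1, a regulator of bile acid signalling in the small intestine, held 3 of them, with 16, 13 and 11 reads and no ISC read, and 2900026A02Rik held 2, with 22 and 11. Another lay on chromosome 14 outside genes (18 reads) and another in Srcap (10 reads; 79 ISC reads on the gene). The mitochondrial member, chrM:10027-12317, had 30 reads and ran from mt-Nd4l to mt-Nd5 with no end on an exon end. On the mitochondrial genome as a whole the library labelled ISC had 1 circRNA with 1 read and the non-ISC library 54 with 132. Of members named after FANTOM transcripts, one with 82 reads joins exons 5 to 7 of Farsa, a tRNA synthetase subunit gene, and another with 10 reads lies in Mgam.

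The table's count column, whose definition the labels do not state, equalled the junction reads for 68.9% of members, against 73.7% with an ISC entry. It exceeded them by far for a number of members, of which the following are examples. The Anpep member had a count of 3977 and 19 junction reads, Pisd-ps3, on the unplaced contig JH584304, 4290 and 10, Fat1 1683 and 42, Mgam 1270 and 13, and Cdhr2 654 and 140. Junction reads alone were therefore used for all comparisons.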

How the data were processed

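The deposited table of each library gives, per the file headers, a circRNA name with its position, a gene symbol, a count, an RPM value and back-splice junction reads. The authors' count column was used only as an alternative, and the deposited RPM values, which divide it by a library total, only to derive those totals (52636694 for the library labelled ISC and 72271995 for the non-ISC library). Per the submitters' processing notes reads were handled with FastQC and Trimmomatic 0.36 and the build is mm9, but the starts fall on exon starts of GRCm38 (GENCODE M21) for 79.4% of the ISC and 81.1% of the non-ISC circRNAs, so GRCm38 was used. The sources used here name neither the aligner nor the circRNA caller, so these are not given.

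Members and lists were chosen with earlier results of these data known. Genes with enzymes of small molecules and of glycans were grouped after the values had been seen. Named were the 25 members with the most reads, up to 3 hosts per list or symbol family, the 5 hosts with the most members, the 5 with the most ISC reads on other circRNAs, the 3 longest and 3 shortest members, members in mitochondria or without a gene, and the 3 with the most reads that share an end with an ISC circRNA; hosts named beyond these were chosen after their values were seen. Ratios are of junction reads per library total of junction reads, with exact conditional 95% intervals, shares carry exact (Clopper-Pearson) intervals and medians carry binomial order-statistic intervals (Python 3.11.15, pandas 2.3.3, NumPy 2.4.6, SciPy 1.17.1, matplotlib 3.10.9). Junction sequences were joined from GENCODE M21 transcripts. Nothing was tested between conditions, because each had 1 library. Some hosts that the naming rule would name are not reported here.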

Additional observations from a re-analysis of the deposited data

How the results depend on the processing

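Of 32 values computed under other settings, 17 stayed within the range of counting error or 1.5 times the count, and 15 moved. With a minimum of 5 junction reads there were 1010 members, 64.6% had ISC reads on other circRNAs of the host, 84.4% had both ends on exons of 1 transcript and 82 had epithelial hosts (enterocyte, contact and secretory lists; 40 at a minimum of 10). With a minimum of 20 there were 122 members, 19 of them with epithelial hosts. With a count of at least 10 in place of junction reads there were 7244 members, with a median span of 4476 bases, 57.7% with both ends on exons and 354 with epithelial hosts. Without members that share a start or an end with an ISC entry 204 remained, and 31.0% had ISC reads on the host. Where the host was judged by overlap with any ISC circle, 43.0% of members had one. Without Btnl1, 35 members had epithelial hosts. Scaled to library totals, 11 member hosts were lower and 30 higher, a turn of the direction. The last 2 changes were chosen after seeing the data. The cause of these changes was not tested, apart from what each setting admits or removes. No paired analysis was possible because each group had 1 library, and no replicate could be left out. A member at 10 reads is 131 per 1000000 junction reads, and a missing ISC entry allows up to 19.2.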
